A study of Mus musculus with 6 samples.

Results

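Open chromatin was examined at 9 genes for the transcription factors of effector regulatory T cells (Tregs), namely *Prdm1*, *Irf4*, *Maf*, *Rora*, *Pparg*, *Id2*, *Id3*, *Bcl6* and *Myb*. The members were chosen by name, and the regions at each were those that overlapped its gene body or 10 kb on either side. Of 104845 regions in all, 134 lay at the 9 genes, of which 134 regions of the WT list and 122 of the KO list were parts. The splenic Tregs came from CREBfl/fl mice (labelled WT, 3 libraries), which carry the floxed CREB alleles without Cre, and from Foxp3creCREBfl/fl mice (labelled Foxp3_KO, here KO, 3 libraries), in which a Cre recombinase expressed from the *Foxp3* locus deletes CREB in cells that express Foxp3. Both groups thus carried the floxed alleles, the background was C57BL/6 and the ages were 6 to 12 weeks. The genotypes come from the study's methods, since the labels give only the group names. The libraries were made by Omni-ATAC-seq, in which a transposase cuts and tags accessible DNA, and the deposited data are 1 list of peaks per group. No difference could therefore be tested between mice, no p-value is given, and every interval below covers counting error only.

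Effector Tregs arise from resting, central Tregs after antigen contact and take up residence in tissues or follicles. Blimp-1 (*Prdm1*) and IRF4 direct this step together with partners such as BATF, and c-Maf (*Maf*) supports production of IL-10. PPARγ (*Pparg*) marks Tregs of visceral fat and RORα (*Rora*) is found in Tregs of skin, whereas Bcl6 directs the follicular fate and is opposed by Blimp-1. ID2 and ID3 hold back E proteins, a family of basic helix-loop-helix activators, and c-Myb is needed for the passage of Tregs to the effector state. CREB, the factor deleted in the second group, binds the cAMP response element (CRE), whose full form is TGACGTCA.

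The sequences that follow belong to the shared regions with the highest or lowest ratio between both lists at *Pparg*, *Maf*, *Rora* and *Bcl6*, and to the region at *Id3* that was called in the WT list only. Each is centred on the summit, read 5′ to 3′ from the plus strand of GRCm38. Capitals mark the words TGACG (the shorter CRE word), TGANTCA (AP-1) and GAAAGTG (the type bound by Blimp-1), on either strand.
Pparg intron, chr6:115432532-115432771: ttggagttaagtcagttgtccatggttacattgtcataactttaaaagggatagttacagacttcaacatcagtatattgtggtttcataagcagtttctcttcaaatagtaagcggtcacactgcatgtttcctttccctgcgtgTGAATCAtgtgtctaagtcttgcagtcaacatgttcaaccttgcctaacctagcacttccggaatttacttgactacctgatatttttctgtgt
Pparg intron, chr6:115480366-115480605: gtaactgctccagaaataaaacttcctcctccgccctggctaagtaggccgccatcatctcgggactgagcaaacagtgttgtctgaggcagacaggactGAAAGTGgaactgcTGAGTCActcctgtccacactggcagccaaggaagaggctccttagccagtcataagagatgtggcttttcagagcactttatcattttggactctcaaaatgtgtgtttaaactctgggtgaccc
Maf intron, chr8:115700360-115700599: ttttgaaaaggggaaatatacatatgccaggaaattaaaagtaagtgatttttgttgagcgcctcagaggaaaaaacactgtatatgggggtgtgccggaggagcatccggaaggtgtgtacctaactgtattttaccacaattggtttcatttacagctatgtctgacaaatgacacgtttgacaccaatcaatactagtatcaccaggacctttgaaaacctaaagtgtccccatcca
Rora intron, chr9:68969484-68969723: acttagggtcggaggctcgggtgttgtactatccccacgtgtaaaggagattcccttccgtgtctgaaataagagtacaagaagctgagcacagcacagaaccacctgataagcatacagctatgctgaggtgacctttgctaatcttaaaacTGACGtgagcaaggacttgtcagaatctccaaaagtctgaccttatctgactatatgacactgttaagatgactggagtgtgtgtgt
Bcl6 upstream, chr16:23997300-23997539: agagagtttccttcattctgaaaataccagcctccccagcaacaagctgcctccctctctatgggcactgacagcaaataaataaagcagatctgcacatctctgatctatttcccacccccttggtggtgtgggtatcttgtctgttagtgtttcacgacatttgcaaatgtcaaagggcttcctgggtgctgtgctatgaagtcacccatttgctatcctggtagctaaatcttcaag
Id3 upstream, chr4:136140370-136140489: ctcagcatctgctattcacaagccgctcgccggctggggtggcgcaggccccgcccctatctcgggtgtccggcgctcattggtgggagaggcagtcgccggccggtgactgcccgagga
The *Pparg* stretches held an AP-1 word each, and the one at chr6:115480366-115480605 also held GAAAGTG. The *Rora* stretch held TGACG, and the *Maf*, *Bcl6* and *Id3* stretches held none of these words.

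The full CRE is shown with its surroundings where it lay within the 300 bases around the summit of a region at *Maf*, *Bcl6* and *Myb*, in capitals.
Maf, upstream of the start, chr8:115707845-115707904: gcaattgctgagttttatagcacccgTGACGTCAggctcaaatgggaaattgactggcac
Bcl6, upstream, chr16:23998098-23998157: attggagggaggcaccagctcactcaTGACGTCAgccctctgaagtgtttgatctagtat
Myb, coding exon, chr10:21144999-21145058: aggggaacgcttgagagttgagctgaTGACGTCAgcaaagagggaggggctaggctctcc

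The pileup, meaning the number of fragments over a summit, was recovered as a whole number from the fold and the p-value of each peak. Over the genome the background was 8.44 fragments in the WT list and 5.09 in the KO list, a ratio of 1.66. A level below is the pileup divided by this background of its own list. A ratio is the KO level over the WT level on the log2 scale, relative to the median of all 82009 shared regions with both pileups, which was 0.15 before centring, so that 0 stands for the typical region. The build was checked on the annotation: 57.8% of 54086 annotated starts of protein-coding transcripts had a WT peak within 1 kb, against 13.9% after a shift by 100 kb. As to the labelled cell type, promoter regions of all 6 Treg markers, among them *Foxp3* and *Il2ra*, were present, with a summed level of 467 in WT and 466 in KO. These sums are not centred, whereas the typical shared region was 0.15 higher in KO. By gene, the median ratio over all shared regions of a marker ran from -0.285 at *Ctla4* to 0.125 at *Ikzf2*, with *Foxp3* at -0.21. The promoter of *Creb1*, the floxed gene, had pileups of 1065 and 757 with a ratio of 0.09 (95% interval -0.05 to 0.22), and a peak at the promoter does not check the deletion.

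Chromatin at the 9 genes was largely alike in both lists. Of the 134 regions, 106 were shared, 21 were WT-only and 7 were KO-only, where group-only means that no base overlapped a region of the other list. The WT-only share was 15.7% of 134 WT regions (Wilson 95% interval 10.5 to 22.8), near the 16.4% of all WT regions without a KO counterpart. The KO-only share was 5.74% of 122 KO regions (2.81 to 11.4), near the 6.61% of all KO regions. *Rora* alone held 14 of the 21 WT-only regions, and without it 7 of 75 WT regions (9.33%) and 4 of 73 KO regions (5.48%) were group-only. Group-only regions were weaker than shared ones: the median pileup was 44 for WT-only and 31 for KO-only, against 171 in WT and 119 in KO for shared regions, and 18 of the 21 WT-only regions were at most 150 bp long, as were 82.0% of all WT-only regions, whereas this held for 4 of the 7 KO-only regions, against 88.4% of all KO-only regions. The low WT-only median came from *Rora*, since the 7 WT-only regions of the other 8 genes had pileups of 51 to 146 with a median of 133.

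The ratios of the 106 shared regions were centred on the typical region, with a median of 0.00 and quartiles of -0.16 and 0.15, and with 54 above 0 and 52 below. At least 1.5-fold lower in KO was 1 region, at *Rora*, against 3.30% of all shared regions, and at least 1.5-fold higher were 4, 3 at *Pparg* and 1 at *Maf*, against 2.64%. The interval lay below 0 in 8 regions (7.89% of all) and above 0 in 6 (5.47% of all). No region at the 9 genes passed 2-fold and 5 counting SDs, which 0.121% of all shared regions did in the lower direction and 0.0841% in the higher. All 15 promoter regions, within 1 kb of an annotated start of a protein-coding transcript, were shared, with ratios between -0.19 and 0.58. The shared part among promoter regions of all genes was not taken. Over the whole lists shared regions were the stronger ones. Their median WT pileup was 116, against 33 for WT-only regions in WT and 23 for KO-only regions in KO.

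**Figure D1:**
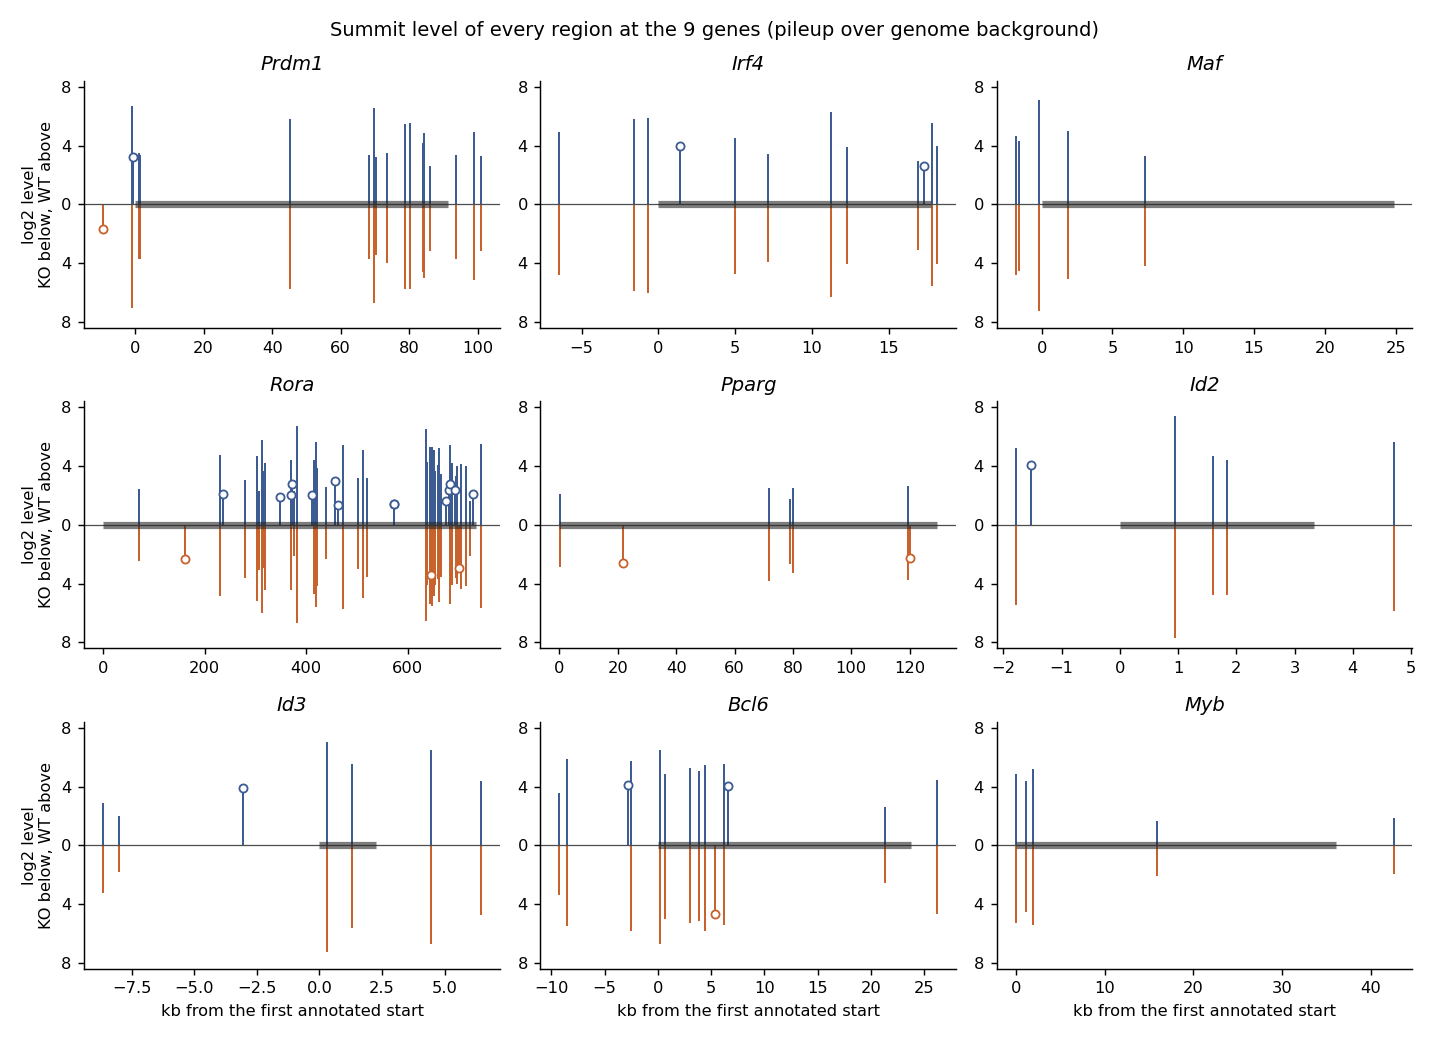
Level of every region (log2 of the pileup over the genome background of the list) against the distance in kb from the first annotated start, WT upward and KO downward, with the gene body as a grey bar and group-only regions as open circles. The panels mirror each other at *Maf* and *Myb*, which have no group-only region, while 14 of the 21 WT-only circles lie along *Rora* and both circles at *Pparg* are KO-only.

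*Prdm1* (chr10:44437177-44528501, minus strand) encodes Blimp-1, a zinc finger repressor that marks effector Tregs. It had 18 regions, 16 of them shared, with a median ratio of 0.11 (0.00 by the authors' fold). The strongest lay 1.02 kb upstream of the first annotated start, which belongs to a transcript that is not protein-coding, where 893 fragments in WT stood against 669 in KO, a ratio of 0.16 (0.02 to 0.31). This was its only region whose interval left out 0, and by the authors' fold the ratio was 0.11 (-0.04 to 0.26), which holds 0. The protein-coding starts of *Prdm1* lie far inside the gene. The region over the first of them had pileups of 810 and 527, levels of 95.9 and 104, and a ratio of -0.04 (-0.20 to 0.12). A smaller region beside it, also within 1 kb of a start, gave 79 and 55 with a ratio of 0.06 (-0.47 to 0.57). The last protein-coding start, 1.54 kb past the first, had no region within 1 kb in either list. The other shared regions ranged from -0.31 to 0.38. The only WT-only region, 0.63 kb upstream with a pileup of 78, ended 48 bp from a KO region, and the only KO-only region, 9.32 kb upstream, had a pileup of 16.

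*Irf4* (chr13:30749226-30766976, plus strand) encodes the interferon regulatory factor that works with BATF in effector Tregs. Its 10 shared regions had a median ratio of -0.04 and ranged from -0.25 to 0.29, with every interval holding 0. At the promoter the pileups were 490 and 327, a ratio of 0.00 after rounding (-0.21 to 0.20). The strongest region, in an intron 11.2 kb past the start, had 647 and 400 and a ratio of -0.11 (-0.30 to 0.07). Taking the mean of all summits in place of the highest moved that value to 0.68, where WT has 2 peaks and KO 1, and moved the region 1.57 kb upstream, where WT has 1 and KO 2, from -0.10 to -0.67. Both intervals then left out 0. *Irf4* had 2 WT-only regions and no KO-only region. The first lay in a coding exon 1.40 kb past the start (chr13:30750585-30750705) with a pileup of 133 over a local background of 61.6, and the nearest KO region was 1149 bp away. The second, near the 3′ end, had a pileup of 51 and lay 42 bp from a KO region.

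*Maf* (chr8:115682942-115707794, minus strand) encodes c-Maf, a basic leucine zipper factor, and all of its 5 regions were shared. The promoter region had pileups of 1152 and 771, among the strongest at the 9 genes, with levels of 136 and 152, and its ratio was 0.00 (-0.13 to 0.13). The CRE printed above lies in this region. The region in the intron 7.31 kb past the start (chr8:115700374-115700561) stood apart from the other 4, where 82 fragments in WT stood against 94 in KO, a ratio of 0.78 (0.33 to 1.22). Of 12803 shared regions of like level (within 1.25 times), 0.836% had a ratio as high. The region was picked for its ratio among 106 shared regions, so this share is a rank and tests nothing. By the authors' fold, which is taken over the local background, the ratio was 0.41 (-0.03 to 0.85), and the interval then held 0. The other regions, upstream and in the coding exon, lay between -0.07 and 0.11.

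*Id2* (chr12:25093799-25097140, minus strand) and *Id3* (chr4:136143497-136145755, plus strand) encode inhibitors of E proteins and have compact loci with strong promoters. The main region of *Id2*, about 0.95 kb past the first start and over its other starts, had the highest pileups at the 9 genes, 1408 in WT and 1039 in KO, with a ratio of 0.14 (0.03 to 0.26), or 0.06 (-0.06 to 0.18) by the authors' fold. The 5 shared regions of *Id2* ranged from -0.06 to 0.23. The promoter of *Id3* had 1115 and 776 with a ratio of 0.06 (-0.08 to 0.19), and a region downstream, 4.47 kb past the start, had 775 and 546 with a ratio of 0.08 (-0.09 to 0.24). Every interval among the 6 shared regions of *Id3* held 0. Each gene had 1 WT-only region. That of *Id2* lay 1.53 kb upstream, with a pileup of 143 over a local background of 73.4, and was 116 bp from a KO region. That of *Id3* lay 3.07 kb upstream with a pileup of 127 over 52.5, and the nearest KO region was 3032 bp away.

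*Bcl6* (chr16:23965052-23988852, minus strand) encodes a transcriptional repressor that directs the follicular program. At its promoter 745 fragments in WT stood against 545 in KO, a ratio of 0.13 (-0.03 to 0.29). Upstream, 8.57 kb from the start (chr16:23997133-23997698), a region with a pileup of 504 in WT had 231 in KO, a ratio of -0.54 (-0.78 to -0.32). This is under 1.5-fold, and 1.27% of 6376 shared regions of like level had a ratio as low. It was picked as the lowest of the 11 shared regions of the gene, so this share is only a rank. By the authors' fold the ratio was -0.28 (-0.51 to -0.06). The neighbouring region, 9.25 kb upstream and with the CRE printed above, had 99 and 53 and a ratio of -0.32 (-0.83 to 0.17). In an intron 6.18 kb past the start the pileups were 392 and 217, with a ratio of -0.27 (-0.52 to -0.03), so that 2 of the 11 shared regions were lower by their interval and 0 higher. Over all shared regions 7.89% were lower and 5.47% higher by their interval. By the authors' fold this intron region had a ratio of -0.18 (-0.42 to 0.07) and without centring -0.12 (-0.37 to 0.12), which leaves 1 of the 11. The median over the gene was -0.09. *Bcl6* also held WT-only regions with pileups of 146 (2.76 kb upstream) and 139 (6.62 kb past the start), which lay 108 and 100 bp from KO regions. The KO-only region, 5.38 kb past the start, stood 128 fragments high over a local background of 50.7, the highest of the 7 KO-only regions, and was 535 bp from a WT region. The promoters of *Prdm1* and *Bcl6*, which encode opposing repressors, thus had intervals that held 0, and the differences at *Bcl6* lay away from the start.

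*Myb* (chr10:21124935-21160984, minus strand) encodes c-Myb. It had 5 shared regions and no group-only region. The promoter had 250 and 201, a ratio of 0.27 (-0.01 to 0.54), and the strongest region, in an intron 1.93 kb past the start, had 313 and 218 with a ratio of 0.06 (-0.20 to 0.31). A weak region in a coding exon had 27 and 22, a ratio of 0.29 (-0.60 to 1.15), and the CRE printed above lies just outside it, within the 300 bases around its summit. The remaining regions were near the typical one, at 0.00 after rounding and 0.01.

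**Figure D2:**
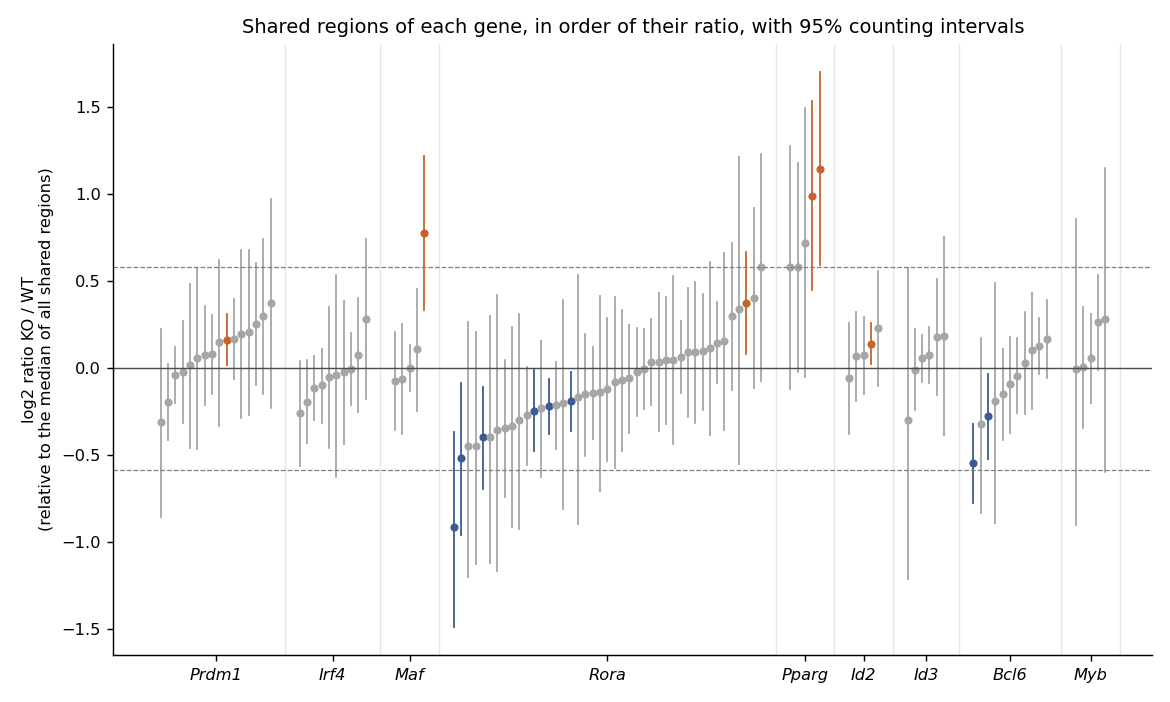
Log2 ratio KO over WT of the 106 shared regions, ordered within each gene, with 95% counting intervals; grey intervals hold 0, blue ones lie below it and orange ones above, and dashed lines mark 1.5-fold. *Pparg* is the only gene with every ratio above 0, from 0.58 to 1.15, and *Rora* holds 6 of the 8 intervals below 0.

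*Rora* (chr9:68653786-69388246, plus strand) encodes the nuclear receptor RORα and is by far the longest of the 9 genes, at 734 kb, with 60 regions. The first annotated start had no region in either list. The start inside the gene, 636 kb further on, carried a strong region with pileups of 795 and 466, levels of 94.1 and 91.6, and a ratio of -0.19 (-0.36 to -0.02). The strongest region, in an intron 381 kb past the first start, had 895 and 515 and a ratio of -0.22 (-0.38 to -0.06), which was -0.04 (-0.20 to 0.11) by the authors' fold. The 43 shared regions had a median of -0.12, with 27 below 0 and 16 above, against 49.6% above 0 among all shared regions of the same range of levels. Intervals below 0 were found in 6 and above 0 in 1, a region 303 kb past the start with 213 and 185 and a ratio of 0.38 (0.09 to 0.67). Over all shared regions the interval lay below 0 in 7.89% and above 0 in 5.47%. By the authors' fold 2 intervals lay below 0 and 0 above, that at 303 kb being 0.18 (-0.11 to 0.47), and the start inside the gene then had -0.07 (-0.24 to 0.09). Without centring 1 interval lay below 0 and 6 above, and the median was 0.03, so the direction of the *Rora* regions holds only relative to the typical region.

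The intron region 316 kb past the first start of *Rora* (chr9:68969363-68969695) was the only one at the 9 genes that was at least 1.5-fold lower. Its pileups were 107 in WT and 38 in KO, with levels of 12.7 and 7.47 and a ratio of -0.91 (-1.49 to -0.37). Of 13229 shared regions of like level, 0.915% had a ratio as low. The region was picked as the lowest of the 106 shared regions, so this share is only a rank. A neighbour at 315 kb had 61 and 30 with a ratio of -0.44 (-1.12 to 0.21), and one at 313 kb had 466 and 326 with a ratio of 0.07 (-0.14 to 0.27). The lower values thus did not extend to the strong region nearby.

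WT-only regions made up 14 of the 59 WT regions of *Rora*, 23.7% (14.7 to 36.0), and KO-only regions 3 of 49, 6.12% (2.10 to 16.5). The background of 16.4% lies inside the first interval. All 14 were in introns or, for 1, in an exon near the 3′ end, and their pileups ran from 22 to 66. The highest, 457 kb past the first start (chr9:69110853-69111034), had 66 fragments over the genome background of 8.44, and the nearest KO region was 14011 bp away. The longest, 372 kb past the start, spanned 316 bp with a pileup of 58. As to depth, 7 of the 14 sat on the genome background itself, against 0 of the 7 WT-only regions at the other 8 genes. With pileups scaled to the depth of the KO list, 11 of the 14 still reached the lowest -log10 p of that list, 3.22. Those that did not had pileups of 22, 23 and 23. The KO-only regions had pileups of 25, 55 and 38, and that of 25 (chr9:68814309-68814404) was 70010 bp from any WT region. A further shared region of the window lies at the promoter of *Ice2*, the next gene, with 392 and 262 and a ratio of 0.00 after rounding.

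**Figure D3:**
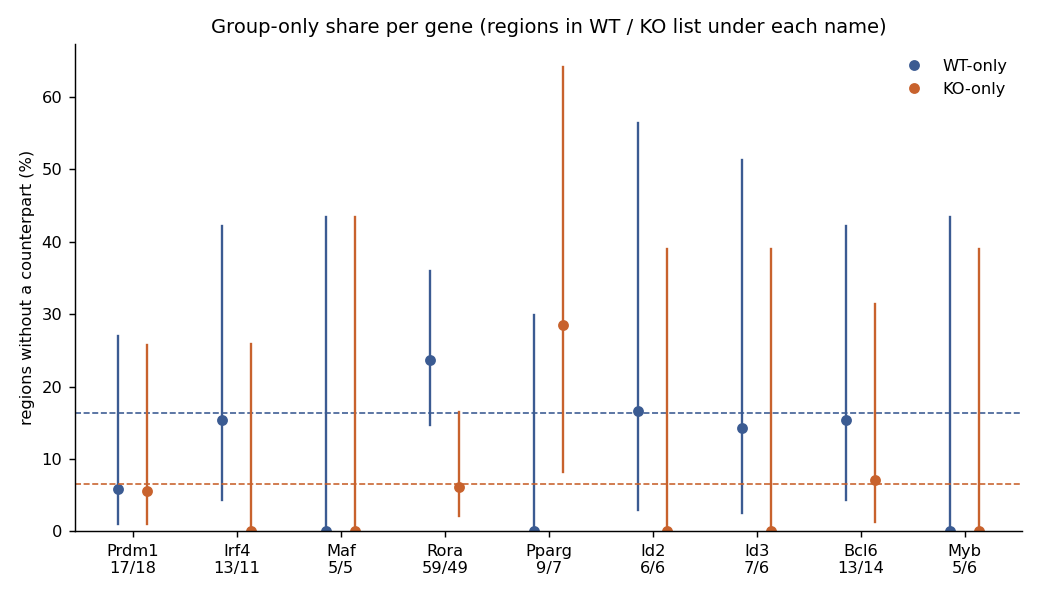
Share of the regions of each gene without a counterpart in the other list (%), WT-only in blue and KO-only in orange, with Wilson 95% intervals and the numbers of WT and KO regions under each name; dashed lines are the shares over all regions, 16.4% and 6.61%. Most genes have too few regions for a narrow interval, and only at *Pparg* does an interval, the KO-only one, lie wholly past its line. That interval rests on 2 of 7 regions, and its line covers regions of all strengths, whereas those of *Pparg* are weak.

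*Pparg* (chr6:115360951-115490399, plus strand) encodes PPARγ, the nuclear receptor of fat-resident Tregs. By its strongest region it was the weakest of the 9 genes in WT, with levels of 3.43 to 6.16, against a highest level of 37.1 at *Myb*, the next weakest by its strongest region. All 5 shared regions were above the typical region. In the intron 71.7 kb past the first start (chr6:115432449-115432875) the pileups were 48 in WT and 71 in KO, levels of 5.68 and 13.95, and a ratio of 1.15 (0.60 to 1.71). The region 119.5 kb past it (chr6:115480056-115480640) had 52 and 69, levels of 6.16 and 13.6, and a ratio of 0.99 (0.45 to 1.54). These are the regions whose sequences are printed above with AP-1 words. In both, the KO pileup was higher even before any scaling, although the KO list is the shallower.

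The region 78.9 kb past the start of *Pparg* was also over 1.5-fold, at 29 and 32 with a ratio of 0.72, but its interval (-0.05 to 1.5) held 0. At 79.9 kb both lists had 49 fragments, a ratio of 0.58 (-0.02 to 1.18). The promoter had 37 in both, a ratio of 0.58 (-0.12 to 1.28), and spanned 1336 bp with 3 peaks in WT and 1 in KO. The starts 22.7 and 61.1 kb further on had no region within 1 kb. *Pparg* had 0 WT-only regions of 9 and 2 KO-only regions of 7, 28.6% (8.22 to 64.1), against 6.61% of all KO regions. The 6.61% covers regions of all strengths, whereas KO-only regions were weak, with a median pileup of 23 over the whole list. It is thus not a share among regions as weak as those of *Pparg*. The group-only counts also depend on the overlap that makes a region shared: with a reciprocal overlap of at least 50%, 7 WT regions and 5 KO regions of *Pparg* had no counterpart. The first KO-only region, 21.7 kb past the start (chr6:115382498-115382696), had a pileup of 31 and lay 20727 bp from a WT region, and the second, 120.02 kb past it (chr6:115480823-115481036), had 24 and lay 221 bp from one. The median over the shared regions was 0.72, and it lay between 0.72 and 1.06 under the other ways of taking the ratio.

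Beside the *Pparg* values stand those of all regions of like strength and of other cell types. Among 20459 shared regions in the same range of levels, 50.4% were above 0 and 5.50% at least 1.5-fold higher. Of 13328 regions of like level to that at 71.7 kb, 0.270% had a ratio as high, and of 13269 for that at 119.5 kb, 0.603%. Both regions were picked for their ratio, so these shares are only ranks. At the promoter, at 78.9 kb and at 79.9 kb, 7.58%, 3.40% and 5.94% of regions of like level had a ratio as high. Of 4 B cell markers, 3 had a promoter region, with a summed level of 41.2 in WT and 53.1 in KO and single levels from 0 to 26.1. *Cd79a* had none, and *Ms4a1* had levels of 3.08 and 7.47. Of 5 myeloid markers, 3 had one, with sums of 64.9 and 76.7, and *Csf1r* and *Lyz2* had none. The 4 CD8 and NK cell markers summed to 25.6 and 24.96 with *Cd8a* and *Ncr1* at 0, and the 3 erythroid markers to 82.1 and 89.8 with *Hbb-bs* at 0. These sums are not centred, whereas the typical shared region was 0.15 higher in KO. By the centred ratio, 3 of 23 shared regions at the B cell markers were at least 1.5-fold higher and 0 lower, against 2.64% and 3.30% of all. Their median was 0.01. Higher were 1 of 21 at the myeloid, 0 of 9 at the CD8 and NK and 0 of 6 at the erythroid markers. The methods sort Tregs as CD4+CD25+Nrp1+ cells for the expression arrays and the methylation assay, and do not name the gate for ATAC-seq. Whether other cells had a part in the *Pparg* values was not tested, and a change in accessibility per cell cannot be told apart from a change in the share of cells.

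**Figure D4:**
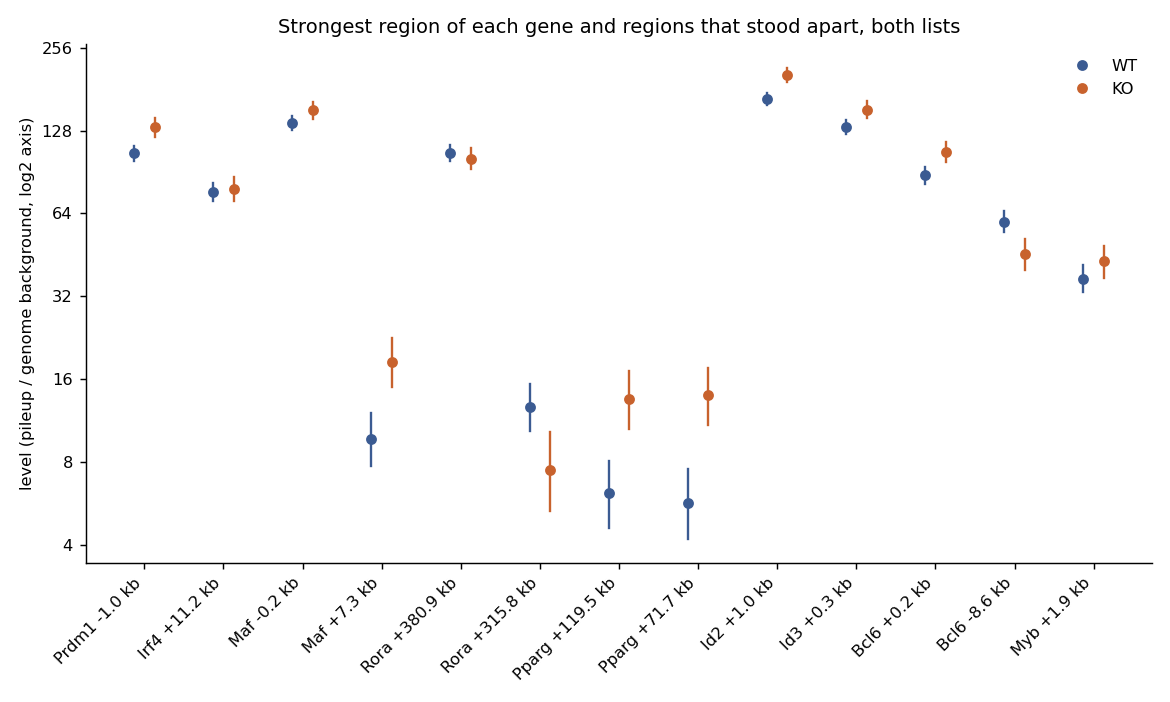
Levels in the WT (blue) and KO (orange) lists, on a log2 axis, of the strongest region of each gene and of the regions that stood apart, with 95% Poisson intervals of the pileup; names give the distance from the first start. The regions at *Pparg* and the one at *Maf* +7.3 kb are higher in KO at low levels (5.68 to 18.5), and *Rora* +315.8 kb is lower. *Bcl6* -8.6 kb is also lower in KO, at levels of 59.7 in WT and 45.4 in KO. The levels are not centred. Among the strongest regions, those of *Id2* (167 and 204) and *Prdm1* (106 and 131) are higher in KO on this axis, and that of *Rora* (106 and 101) is slightly lower.

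**Figure D5:**
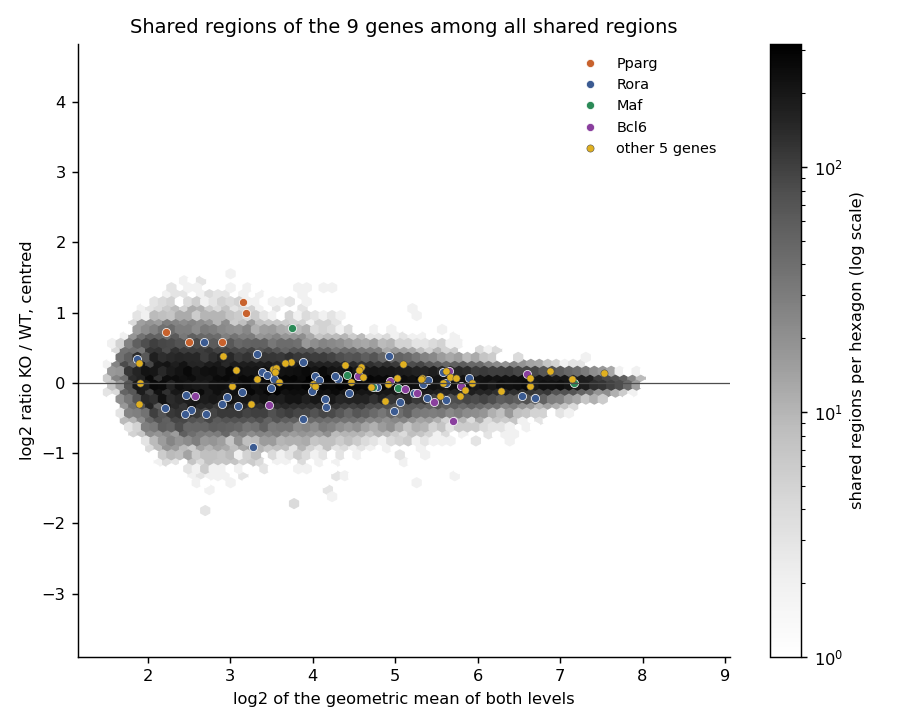
Centred log2 ratio against the log2 of the geometric mean of both levels for all 82009 shared regions (grey hexagons, darker for more regions) and for the 106 shared regions of the 9 genes (points). The spread of all regions is wider at low levels, where the *Pparg* points lie, the highest 2 of them at the upper edge.

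Words of known factors were searched in the 300 bases around the summit of each region, on both strands. The full CRE TGACGTCA occurred in 4 of the 134 regions, 2.99% (1.17 to 7.42), against 0.916% of 104840 regions in all. These were the promoter of *Maf*, the region at the *Ice2* promoter, the region 9.25 kb upstream of *Bcl6* and the search window beside the exon region of *Myb*, and their ratios of 0.00, 0.00, -0.32 and 0.29 all had intervals that held 0. None of these 4 regions was group-only. Over the whole lists, too, most regions with a full CRE were shared, 854 of 960, while 89 were WT-only and 17 KO-only. The shorter word TGACG, which the full CRE contains, occurred in 30 (22.4%, against 15.7% of all regions), 15 of them at *Rora*. The AP-1 word TGANTCA occurred in 23 (17.2%, against 13.1%), including 11 at *Rora*, 5 at *Prdm1* and 3 of the 7 at *Pparg*. GAAAGTG was found in 10 (7.46%, against 6.34%), with 3 each at *Bcl6* and *Rora* and 2 at *Pparg*. The composite of an IRF and an AP-1 word was found in 0 of 134, against 0.635% of all. A word is a description of the sequence and not a bound site.

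The genes around this network were read in the same windows. At 7 factors of resting and central Tregs, 81 of 375 WT regions were WT-only (21.6%, against 16.4% of all). The median ratio of their 284 shared regions was -0.18, with 20 at least 1.5-fold lower and 2 higher. Over all shared regions 3.30% were lower and 2.64% higher by this measure. *Bach2*, a repressor that keeps Tregs in the resting state, had 18 WT-only regions among the 92 in either list, *Foxp1* 18 among 137 and *Lef1* 15 among 45. These genes are named for their number of WT-only regions and not for a high share. Their base is the regions of either list, so the counts do not compare with the 16.4% of WT regions. At *Foxp1* a region (chr6:99350382-99350926) had 207 fragments in WT and 67 in KO, a ratio of -1.05 (-1.47 to -0.64), past 2-fold and 5 counting SDs. At 11 other factors of effector or tissue Tregs 34 of 202 WT regions were WT-only (16.8%) and the median was 0.05. Of their 165 shared regions 2 were lower and 2 higher. *Ikzf2*, which encodes Helios, held 15 of these WT-only regions among 79 regions in either list. At 10 target genes 11 of 97 were WT-only (11.3%) with a median of -0.09, and of 82 shared regions 5 were lower and 3 higher. *Ctla4*, the inhibitory receptor, held a region (chr1:60882767-60883143) with 684 in WT and 176 in KO, a ratio of -1.38 (-1.63 to -1.14). For 7 partners of IRF4 the counts were 8 of 57 with a median of -0.06, for the 3 E proteins 13 of 58 with 0.01, and for 4 further nuclear receptors 8 of 35 with -0.05. Set beside these, the 9 genes had a median of 0.00 and 21 of 134 (15.7%).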

How the data were processed

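Omni-ATAC-seq libraries of splenic Tregs (3 per group by the labels, sequenced in duplicate by the methods as 75 bp pairs) were trimmed with Trim Galore and aligned with Bowtie2 by the authors, who removed duplicates, kept qualities over 30 and called peaks with MACS2. Tool versions and the way libraries were joined are not given in the labels or methods. The labels and methods name mm9, whereas positions matched GRCm38 with GENCODE vM21, which was used. The deposited lists give per peak a score, a fold (ratio of the pileup to the local background), and -log10 p-values and q-values. The position of the summit is also deposited. The methods name nolambda (no local background), yet 32.6% of WT and 29.6% of KO peaks carried the genome background and the others a higher one, so local backgrounds are as recovered from the lists and the reason is not known.

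The pileup and background were recovered from fold and p within 0.002 on the -log10 scale for 99.94% of WT and 99.97% of KO peaks, with Python 3.11.15 (numpy 2.4.6, pandas 2.3.3, scipy 1.17.1). The functions were checked on simulated data. Regions overlapping by at least 1 bp were merged, with the highest pileup taken. Ratios have exact conditional binomial 95% intervals. The text names, for each gene, its promoter, its strongest region, every group-only region (at Rora as a range) and shared regions past 1.5-fold whose interval leaves out 0, and of the surrounding lists every gene with a region past 2-fold and 5 SDs and up to 4 with the most WT-only regions. Other regions were chosen after their values were seen. The 9 genes and the lists were chosen with earlier results of these data known. Alternatives were the overlap, the window, the depth, the q-value, the fold and the centring. Sequences are from RefSeq's GRCm38.p6. A marker gene of the lists is not reported here.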

Additional observations from a re-analysis of the deposited data

How the results depend on the processing

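No paired analysis was possible because each group has 1 list of peaks, and for the same reason no replicate could be left out. With a reciprocal overlap of at least 50%, 32 regions were WT-only and 20 KO-only, in place of 21 and 7. With 50 kb on each side the counts were 35 and 13. Within that window 5 shared regions were at least 1.5-fold lower and 10 higher, 16 intervals lay below 0 and 15 above, and 1 region passed 2-fold and 5 counting SDs in the higher direction. With pileups scaled to the depth of the shallower KO list, 18 of the 21 WT-only regions reached the lowest -log10 p of that list, 3.22. This held with the genome background or, added after the data were seen, the local one. The genome background is the easier bar for regions that sat on a higher local one. The 7 KO-only regions are at that depth already, so the scaling could not change their count. Without centring the median ratio was 0.15, 7 regions were at least 1.5-fold higher, and 2 intervals lay below 0 and 26 above, in place of 8 and 6. By the authors' fold 3 intervals lay below 0 and 2 above. No region whose interval left out 0 changed sign under the fold, without centring, with the median of its own chromosome or with the mean of all summits. Regions whose main interval held 0 were less stable to the mean of all summits, at *Irf4* (above) and elsewhere. The ratio went from 0.08 to -0.54 at *Prdm1* (chr10:44447408-44448757) and from 0.10 to -0.60 at *Rora* (chr9:69068132-69068995). At *Id2* (chr12:25092372-25092685) it went from 0.075 to -0.44. The new intervals left out 0, and KO has 2 peaks in each region where WT has 1. Centring on the same chromosome, the gene body alone and a -log10 q of at least 5 changed none of these counts by more than 1.5 times. The pileups limit the precision: the weakest shared regions had 18 to 22 fragments in KO, and their intervals span more than 2-fold.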
